A study of Mus musculus with 20 samples.

Results

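The share of each transcript in the total signal of its gene was compared between late and early colonoid cultures, over both genotypes. The deposited table lists 113193 mouse transcripts of 35240 gene symbols, and 10654 of these genes had a summed mean of at least 5 over the 20 libraries. A gene entered the comparison when at least 2 of its transcripts also had a mean of at least 1, which left 33733 transcripts of 8330 genes. Values are TPM, length-corrected abundances, divided by a size factor for each library, and a share is given in percent of the gene, so that a difference between shares is in percentage points. The median gene had 3 such transcripts and 2289 genes had exactly 2. Colonoids, epithelial organoids grown from colonic crypts, were grown from WT mice and from mice labelled Tnfr2-/-, a deletion of the TNF receptor encoded by Tnfrsf1b. Each genotype had 2 libraries on each of 5 days post-passage (DPP), and the 5 libraries of a genotype that carry the same number are here called a replicate. The 12 libraries of 1, 2 and 3 DPP are here called early, and the 8 libraries of 5 and 7 DPP late. No treatment is named for these cultures. The column names write these numbers as M1 and M2, but whether a number stands for the same animal on every day is not stated, and if it does the p-values rest mainly on repeated libraries of 4 animals.

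Most mammalian genes give several transcripts, by the use of alternative promoters, alternative splicing and alternative ends. These transcripts can encode proteins with different ends or domains, or, where an intron is retained or a premature stop is created, no complete protein. SR proteins, hnRNPs and other regulators decide which exons are joined, and several of them control their own amount by splicing their transcripts into non-coding or unstable forms. In epithelia, such switches accompany changes of polarity, adhesion and cytoskeleton.

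The cultures carried the labelled tissue's markers, since all 10 defining epithelial genes were at 1 or above in every library, with sums of 11968 to 20449 early and 13673 to 19213 late. Tnfrsf1b lay at 11.1 to 21.9 in WT and at 2.71 to 11.45 in Tnfr2-/- libraries, so that signal of the targeted gene remained under the Tnfr2-/- label and the ranges overlapped at their ends. Fibroblast transcripts were also present, and the study describes Pdgfra+ fibroblasts in a separate single-cell experiment on such cultures. Of 22 fibroblast and smooth muscle genes, 19 were at 1 or above in every library, the smooth muscle gene Des had a mean of 0.223, and their sum ran from 3202 to 6550 early and from 2082 to 12541 late. The sum fell from an early mean of 4669 to a late mean of 2500 in WT replicate 1, and rose from 4611 to 8054 in Tnfr2-/- replicate 1 and from 6357 to 9916 in Tnfr2-/- replicate 2. In WT replicate 2 it was 6052 early and 6143 late. Fewer cells of a type and less RNA per cell cannot be told apart in such cultures. The 14 immune and endothelial genes summed to at most 17.2.

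Shares of single transcripts were noisy. Within a library, 15.8% to 24.2% of the 33733 transcripts were listed at 0, and 21340 of them (63.3%) were at 0 in at least 1 library. Between the libraries of a genotype at 1 day, shares correlated across transcripts at a Pearson r of 0.716 to 0.776, and the median difference was 6.31 to 7.19 points. These transcripts share genes and are not independent replicates. The late minus early difference had a median SE of 4.38 points, against a median absolute difference of 3.02 points.

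With this spread, 24 of 33733 transcripts (0.0711%) in 20 genes were called by limma at a Benjamini-Hochberg adjusted p under 0.05, of which 17 rose and 7 fell late. Without adjustment, 2944 (8.73%) had a p under 0.05, 1558 of them higher late. The 24 called transcripts moved in the same direction in each of the 4 replicates, a direction that their selection on the same values favours. The part of the fibroblast signal in these calls was not tested. Of the 24, 14 differed by at least 10 points, and in 9 the early and late libraries did not overlap, compared with 15 (0.0445%) of all 33733. Protein coding transcripts made up 16 of the 24, with 12 higher and 4 lower late, transcripts with a retained intron made up 6, with 4 higher and 2 lower, and 2 were non-coding processed transcripts. Of all transcripts tested, these classes made up 60.3%, 18.3% and 13.2%, and those marked for nonsense-mediated decay, none of which was called by limma, 7.11%, with 8.51% of that class at an unadjusted p under 0.05. The number called rested on all 4 replicates. It was 0 without WT replicate 1, WT replicate 2 or Tnfr2-/- replicate 1 and 9 without Tnfr2-/- replicate 2, and among single libraries it fell below 16 without WT replicate 1 at 5 DPP (13), WT replicate 2 at 7 DPP (12), Tnfr2-/- replicate 1 at 5 DPP (9) or Tnfr2-/- replicate 2 at 1 DPP (13) or 2 DPP (13). On an arcsine scale of the shares 6 transcripts were called, and 1 when each replicate was reduced to 1 difference. Several calls lay close to the threshold. In the 20 fits that each left out 1 library, Ogt-201 and Mfsd4a-212 were called in 5, Itga6-203, Mfsd4a-201 and Aldh1a3-201 in 6, Srsf3-204 and Mark2-202 in 7, Npm1-204 and Pdcd6ip-201 in 8 and Adar-201 in 10.

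**Figure D1:**
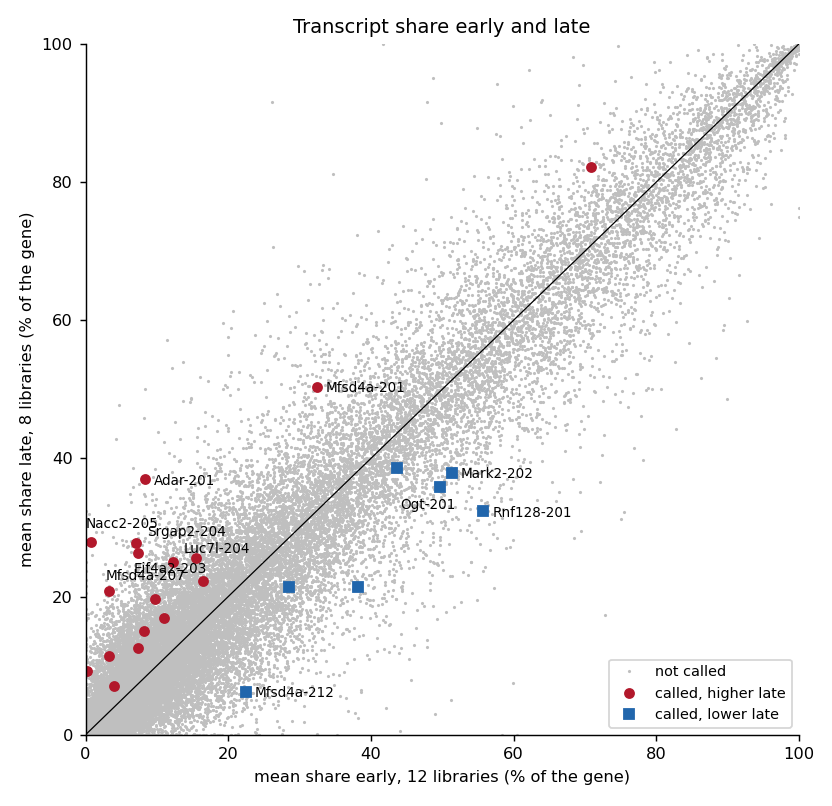
Mean share of each transcript in its gene in the 12 early libraries (horizontal axis, percent) against the 8 late libraries (vertical axis, percent), with the 24 called transcripts in colour and all others as small points. The called transcripts include the fall of Rnf128-201 from 55.8% to 32.3% and the rise of Adar-201 from 8.39% to 37.0%.

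Several transcripts of a gene can encode the same protein. After the transcript shares had been seen, annotated coding transcripts with an identical coding sequence were therefore summed and expressed as a share of the gene's coding signal. Of 15076 coding sequences in 5306 genes, 29 (0.192%) in 20 genes were called by limma, 18 higher and 11 lower late, again with the same direction in all 4 replicates, and 22 of them differed by at least 10 points. The early and late libraries did not overlap in 2 of the 29 and in 4 (0.0265%) of all. The annotation marks 26 of the 29 coding sequences as complete. In 11 genes both a transcript and a coding sequence were called. Leaving out a replicate left 5 called coding sequences without WT replicate 1, 2 without WT replicate 2, 1 without Tnfr2-/- replicate 1 and 7 without Tnfr2-/- replicate 2, and 16 were called without WT replicate 1 at 7 DPP. The form with the highest mean share was another one late than early in 514 genes, and in 2 of them, Rnf128 and Eif4a2, both the losing and the gaining form were called. In 4 of the 20 genes, Rnf128, Aldh1a3, Pdcd6ip and Polr1d, only 2 coding sequences were tested and they made up nearly all of the coding signal, so that their 8 calls are mirrored pairs and the call of one fixed that of the other. The 2 calls of Eif4a2 nearly mirrored each other as well, since the remaining form tested, Eif4a2-201, averaged 3.45% early and 2.97% late. At the level of single transcripts, the leading form differed in 1045 genes and none of these changes was called on both sides by limma, although 2944 transcripts had an unadjusted p under 0.05. The count for coding sequences was 0 without WT replicate 1, without WT replicate 2 or without Tnfr2-/- replicate 1.

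Rnf128 (also called GRAIL) encodes a transmembrane E3 ubiquitin ligase, and its coding forms start at different first exons. These exons lie on the plus strand of chromosome X (GRCm38). Shown are the first 120 of 406 bases that only Rnf128-202 codes, chrX:139563478-139563597, and the first 120 of 484 that only Rnf128-201 codes, chrX:139610806-139610925. Capitals mark bases coded by the named form and not by the other, and both runs open with their start codon.
Rnf128-202: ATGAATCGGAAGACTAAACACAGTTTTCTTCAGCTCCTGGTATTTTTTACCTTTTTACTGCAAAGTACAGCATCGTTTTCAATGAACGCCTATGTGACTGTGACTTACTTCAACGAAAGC
Rnf128-201: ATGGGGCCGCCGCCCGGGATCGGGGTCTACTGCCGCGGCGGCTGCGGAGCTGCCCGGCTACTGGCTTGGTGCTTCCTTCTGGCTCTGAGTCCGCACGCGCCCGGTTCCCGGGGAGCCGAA
From these starts the forms have 402 codons (Rnf128-202) and 428 codons (Rnf128-201), and all later coding exons are shared.

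The upstream form took over late. The share of Rnf128-202 in the coding signal had a lowest value of 25.1%, a median of 36.1% and a highest of 56.8% in the early libraries, against 52.5%, 61.6% and 69.6% late. Only the early library of Tnfr2-/- replicate 2 at 2 DPP, at 56.8%, reached into the late range. The mean was 38.2% ± 8.35 (SD, n = 12) early and 61.3% ± 6.21 (SD, n = 8) late, a rise of 23.2 points (SE 3.46, limma adjusted p 0.00892), with its counterpart Rnf128-201 falling by as much, from 61.8% to 38.7%. The step fell between 3 and 5 DPP, with day means of 37.6%, 38.9%, 38.0%, 59.3% and 63.3%. Among all transcripts of the gene, Rnf128-201 fell from 55.8% ± 9.16 to 32.3% ± 4.57 (SE 3.23, limma adjusted p 0.0131) and its libraries did not overlap, from 42.5% to 70.9% early and from 26.4% to 40.2% late. Rnf128-202 went from 34.8% to 52.0% on that scale and was not called (adjusted p 0.183). In normalised TPM, Rnf128-202 averaged 20.0 early and 47.0 late, and Rnf128-201 31.8 early and 29.4 late. The total level of the gene, from 57.0 to 92.4, was called higher (log2 difference 0.67).

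Eif4a2 encodes a DEAD-box RNA helicase of the eIF4A family that acts in translation initiation and in mRNA repression. Its full-length form Eif4a2-203 (408 codons) and the shorter Eif4a2-202 (362 codons) share their coding sequence, apart from 3 bases near its start, until an exon end, after which each has a 3′ coding end of its own on the plus strand of chromosome 16 (GRCm38). Shown are 24 shared bases in lower case followed in capitals by the first 120 of 142 own bases of Eif4a2-203, chr16:23113167-23113286, and all 7 own bases of Eif4a2-202, chr16:23112351-23112357.
Eif4a2-203: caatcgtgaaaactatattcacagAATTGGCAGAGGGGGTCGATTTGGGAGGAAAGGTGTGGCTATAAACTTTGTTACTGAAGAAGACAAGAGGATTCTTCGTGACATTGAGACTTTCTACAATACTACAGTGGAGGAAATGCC
Eif4a2-202: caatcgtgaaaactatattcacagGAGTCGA
Within the coding signal, Eif4a2-203 had a lowest share of 0%, a median of 11.2% and a highest of 45.0% early, against 34.8%, 54.9% and 62.0% late. The groups overlapped, because 3 Tnfr2-/- libraries of 2 and 3 DPP reached 36.6% to 45.0%. At 3 DPP the WT libraries lay at 4.84% and 1.47% and the Tnfr2-/- libraries at 41.4% and 45.0%, a difference noticed in the values and not tested. The mean rose from 16.4% ± 16.4 to 51.3% ± 10.01 (34.9 points, SE 5.61, limma adjusted p 0.0109), and Eif4a2-202 fell from 80.1% ± 15.3 to 45.7% ± 9.21 (SE 5.22, limma adjusted p 0.00892). The day means were 9.77%, 16.3%, 23.2%, 51.6% and 51.0%. In WT the libraries of 1 DPP, at 23.5% and 15.3%, lay above those of 3 DPP, so that the rise of the early day means came from the Tnfr2-/- libraries. In all transcripts of the gene, Eif4a2-203 went from 7.31% to 26.3% (19.0 points, SE 2.88, limma adjusted p 0.0160). On that scale Eif4a2-202, at 31.1% early and 23.0% late, was not called (limma adjusted p 0.146). The level of Eif4a2-203 in normalised TPM was 16.9 early and 74.9 late, against 73.1 and 63.9 for Eif4a2-202. The gene as a whole was called higher, from 235 to 281 (log2 difference 0.25, limma adjusted p 0.0145).

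**Figure D2:**
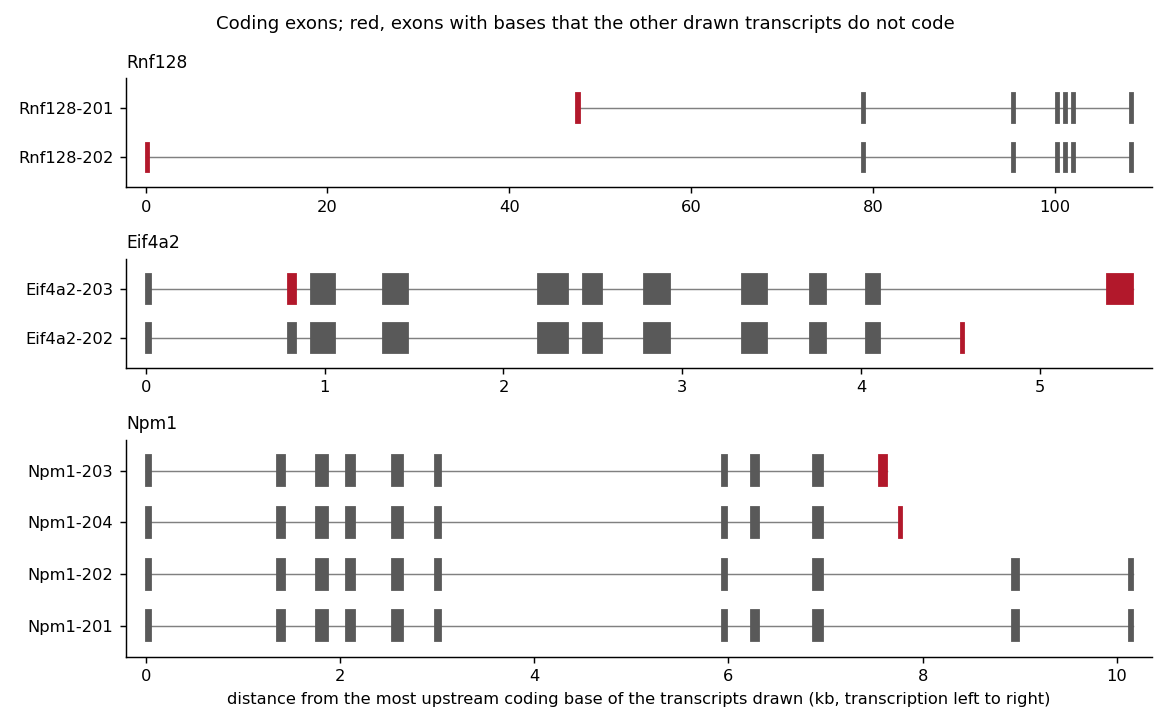
Coding exons of the called and partner forms of Rnf128, Eif4a2 and Npm1, drawn to scale by distance from the most upstream coding base of the gene's drawn forms (horizontal axes, kb, transcription from left to right), with lines for introns and with exons holding bases that no other drawn form codes in red. The Rnf128 forms differ at their start. The called forms of Eif4a2 and Npm1 differ at their ends, with 3 own bases of Eif4a2-203 near its start as well, and Npm1-202 ends like Npm1-201 but lacks an internal exon of 84 bases.

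**Figure D3:**
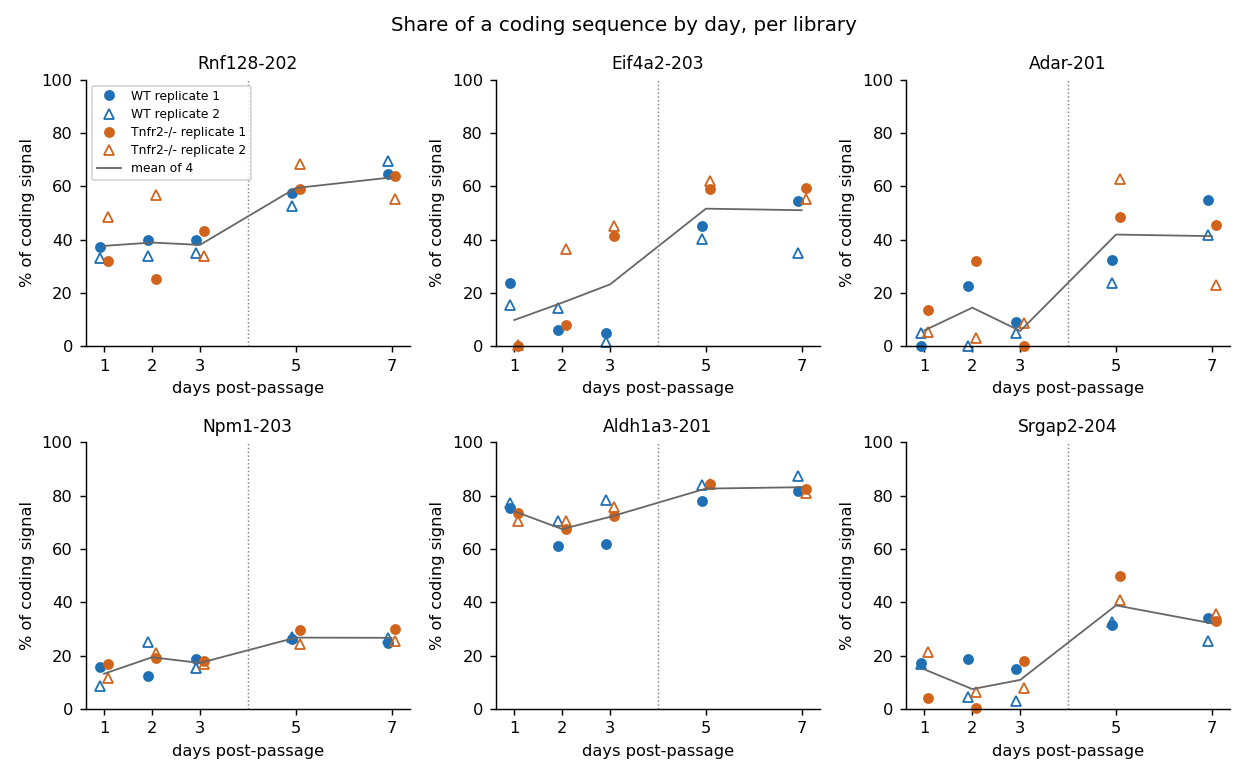
Share of 6 coding forms in their gene's coding signal (vertical axes, percent) by day post-passage (horizontal axes, days), with a point for each library, coloured by genotype and filled for replicate 1 or open for replicate 2, and a line through the day means. Rnf128-202 stepped up between 3 and 5 DPP, from a day mean of 38.0% to 59.3%, whereas Eif4a2-203 at 3 DPP was at 41.4% and 45.0% in Tnfr2-/- and at 4.84% and 1.47% in WT.

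Npm1, the nucleolar histone chaperone nucleophosmin, showed an exchange among forms that differ at their C-terminal end. The coding sequence of Npm1-201 (292 codons, the canonical B23.1) runs on through the terminal exons that hold the nucleic acid binding end, that of Npm1-204 (257 codons, the B23.2 form) stops after 6 bases of its own, and Npm1-203 (285 codons) ends in an exon of its own. The runs lie on the minus strand of chromosome 11 (GRCm38), at chr11:33155342-33155431 for Npm1-203, chr11:33155215-33155220 for Npm1-204 and chr11:33153986-33154060 for the first of 2 runs that Npm1-201 codes and Npm1-203 does not, with the 24 shared bases before them in lower case and the bases that follow in capitals, which for Npm1-201 are also coded by Npm1-202.
Npm1-203: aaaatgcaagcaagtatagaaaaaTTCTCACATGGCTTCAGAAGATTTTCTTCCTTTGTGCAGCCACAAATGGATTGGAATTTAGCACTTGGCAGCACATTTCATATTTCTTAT
Npm1-204: aaaatgcaagcaagtatagaaaaaGCGCAT
Npm1-201: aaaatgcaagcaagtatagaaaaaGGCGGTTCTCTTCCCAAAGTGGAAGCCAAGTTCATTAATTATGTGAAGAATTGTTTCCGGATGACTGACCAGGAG
The share of Npm1-203 among all transcripts had a lowest value of 7.84%, a median of 16.3% and a highest of 24.4% early, against 23.9%, 24.7% and 28.3% late, so that the ranges overlapped only near 24%. Its mean rose from 15.5% ± 4.45 to 25.6% ± 1.66 (10.1 points, SE 1.61, limma adjusted p 0.0185), by 9.63 to 10.4 points in each replicate. Npm1-204 fell from 28.5% ± 2.00 to 21.4% ± 3.71 (SE 1.22, limma adjusted p 0.0297). Npm1-202, at 36.2% early and 37.1% late, and Npm1-201, at 13.1% and 11.9%, were not called. The gene itself fell from 1774 to 1220 (log2 difference -0.55, called). In normalised TPM, Npm1-203 averaged 279 early and 313 late while Npm1-204 averaged 504 and 267. Both were called as coding sequences too (adjusted p 0.0109 for each). Single reads from shared exons cannot be assigned to a form without an estimate, and processed copies of Npm1 exist in the genome, so these values carry more uncertainty than the SE shows.

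Adar encodes the RNA editing enzyme that deaminates adenosine in double-stranded RNA. Its protein has a long interferon-inducible form, p150, and a short constitutive form, p110. The first coding exon of Adar-201 (1152 codons), which the short Adar-202 (930 codons) does not use, lies at chr3:89730811-89730838 on the plus strand (GRCm38) and is shown whole, in capitals, from its start codon.
Adar-201: ATGTCTCAAGGGTTCAGGGGACCCACAG
In the coding signal, Adar-201 had a lowest share of 0%, a median of 5.08% and a highest of 31.8% early, and 23.1%, 43.6% and 62.8% late. The highest early library was Tnfr2-/- replicate 1 at 2 DPP, which overlapped the late range. The mean rose from 8.66% ± 9.78 to 41.6% ± 14.3 (32.9 points, SE 5.34, limma adjusted p 0.0109). Adar-205 (634 codons), whose transcript starts at the same base as that of Adar-201, averaged 27.7% early and 12.9% late and was not called (adjusted p 0.423). Adar-202 averaged 56.0% ± 21.4 early and 21.1% ± 22.6 late and was not called (adjusted p 0.217). The sum of the long forms Adar-201 and Adar-203 (1178 codons), formed after their values were seen and not tested, averaged 16.2% early, with a highest value of 60.0% in WT replicate 2 at 3 DPP, and 66.0% late, with a lowest of 30.3%. Adar is a low gene here, at 21.04 early and 31.1 late (log2 difference 0.56, called), and Adar-201 itself averaged 1.65 early and 11.47 late, so single libraries rest on few reads.

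Of the next genes, Mark2, Macf1 and Itga6 belong to the listed genes spliced differently in epithelial and mesenchymal cells, and Srgap2, Sept8 and Ogt were chosen after their values were seen. Srgap2, a GTPase-activating protein of membrane protrusions, shifted to the form Srgap2-204 (858 codons), which ends before the C-terminal part of Srgap2-201 (1071 codons) in the exon stretch printed here in capitals after 24 shared bases, at chr1:131295473-131295539 on the minus strand (GRCm38).
Srgap2-204: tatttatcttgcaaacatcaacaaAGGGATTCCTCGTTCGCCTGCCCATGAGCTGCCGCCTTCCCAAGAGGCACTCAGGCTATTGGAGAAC
Its share in the coding signal had a lowest value of 0.282%, a median of 11.4% and a highest of 21.2% early, against 25.6%, 33.6% and 49.98% late, without overlap. The mean rose from 11.01% ± 7.39 to 35.5% ± 7.27 (24.4 points, SE 3.71, limma adjusted p 0.00892), with Srgap2-201 at 49.3% early and 30.4% late and not called. The level of the gene was 33.0 early and 27.9 late and not called. Srgap2-204 itself averaged 2.07 early and 7.18 late in normalised TPM, so single libraries rest on few reads. Mark2, the polarity kinase Par1b, had a lower late share of its main transcript Mark2-202, from a range of 43.3% to 62.0% (median 49.4%) early to 30.6% to 42.5% (median 38.2%) late, without overlap. The mean fell from 51.3% ± 5.88 to 37.9% ± 4.40 (SE 2.37, limma adjusted p 0.0343). The transcript that was higher beside it was Mark2-205, annotated to undergo nonsense-mediated decay, at 3.401% early and 16.6% late (adjusted p 0.211, not called).

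Macf1, the giant linker of microtubules and actin, raised the share of Macf1-215 from 9.75% ± 2.56 to 19.7% ± 4.26 (limma adjusted p 0.0184), with libraries from 4.85% to 13.2% early and from 13.1% to 27.7% late, which overlap slightly. This transcript is marked as incomplete in the annotation. Itga6, the laminin-binding integrin α6, had a lower late share of its short non-coding transcript Itga6-203, which fell from 43.6% ± 2.23 to 38.7% ± 1.43 (limma adjusted p 0.0329). The coding forms with alternative cytoplasmic tails were Itga6-201, at 34.8% early and 29.0% late, and Itga6-202, at 15.9% and 24.5%, neither of which was called (adjusted p 0.509 and 0.364). Their sum stayed between 47.3% and 54.0% early and between 48.1% and 58.4% late. Sept8, a septin, raised the share of Sept8-204 from 3.30% ± 2.35 to 11.4% ± 2.70 (limma adjusted p 0.0181). This transcript too was low, at 1.57 early and 6.08 late in normalised TPM. Ogt, the O-GlcNAc transferase, had a lower late share of its coding transcript Ogt-201, which fell from 49.8% ± 6.31 to 35.8% ± 4.02 (limma adjusted p 0.0371) while its level in normalised TPM was 27.8 early and 31.7 late, beside an intron-retaining transcript Ogt-204 at 18.6% early and 25.9% late, which was not called (adjusted p 0.224).

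Mfsd4a, a membrane transporter homologue of the major facilitator family, changed in more transcripts than any other gene, with 4 of the 24 calls. Its total level rose from 52.6 to 317 (log2 difference 2.53). The coding transcripts Mfsd4a-201 (358 codons), Mfsd4a-207 (510 codons) and Mfsd4a-202 (464 codons) rose from 32.4% ± 8.96 to 50.4% ± 3.30, from 3.36% ± 5.597 to 20.9% ± 4.63 and from 0.271% ± 0.633 to 9.16% ± 4.96 (limma adjusted p 0.0371, 0.0131 and 0.0218). For Mfsd4a-201 the direction turned with the denominator, since its share of the coding signal alone averaged 63.0% early and 58.0% late (adjusted p 0.752, not called). The share of the intron-retaining Mfsd4a-212 fell from 22.5% ± 8.23 to 6.19% ± 2.39 (limma adjusted p 0.0364), with libraries from 11.1% to 37.8% early and from 2.44% to 9.56% late. Its level in normalised TPM did not fall, at 10.5 early and 16.3 late. Mfsd4a-207 was at 0 in all 8 libraries of 1 and 2 DPP (day means 0% and 0%) and reached day means of 10.1%, 18.6% and 23.2% afterwards. At low early levels of the gene, transcripts listed at 0 are less certain.

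Summing each gene's transcripts by annotated class, also added after the transcript shares had been seen, gave 5 calls among 15644 class shares in 6439 genes (0.0320%), in 3 genes. In 2 of the 5 the early and late libraries did not overlap, and these were the only 2 (0.0128%) of all class shares. The coding class of Mfsd4a rose from 51.9% ± 13.2 to 86.8% ± 3.83 (limma adjusted p 0.00599), with libraries from 31.4% to 73.7% early and from 81.1% to 94.1% late. Syt8, a member of the synaptotagmin family of membrane trafficking proteins, went from a lowest coding share of 46.1%, a median of 59.1% and a highest of 66.8% early to 65.7%, 76.8% and 81.3% late. The mean rose from 57.3% to 75.1% (17.8 points, SE 1.55, limma adjusted p 1.16e-05), and the intron-retaining share fell from 38.4% to 24.9% (adjusted p 0.0153), although the level of the gene, 125 early and 167 late, was not called. The coding share averaged 51.1% early and 70.6% late in WT and 63.5% and 79.7% in Tnfr2-/-, and the overlap of the ranges came from late WT and early Tnfr2-/- libraries. In Luc7l the retained-intron class rose from 16.5% to 30.3% (adjusted p 0.0153). The number of class calls moved with single libraries. It was 1 without WT replicate 2 or Tnfr2-/- replicate 1, 2 without Tnfr2-/- replicate 2 and 9 without WT replicate 1. It rose to 9 without WT replicate 1 at 3 DPP, 10 without WT replicate 2 at 3 DPP, 13 without Tnfr2-/- replicate 2 at 3 DPP, 8 without WT replicate 1 at 5 DPP, 8 without Tnfr2-/- replicate 1 at 7 DPP and 13 without Tnfr2-/- replicate 2 at 7 DPP.

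**Figure D4:**
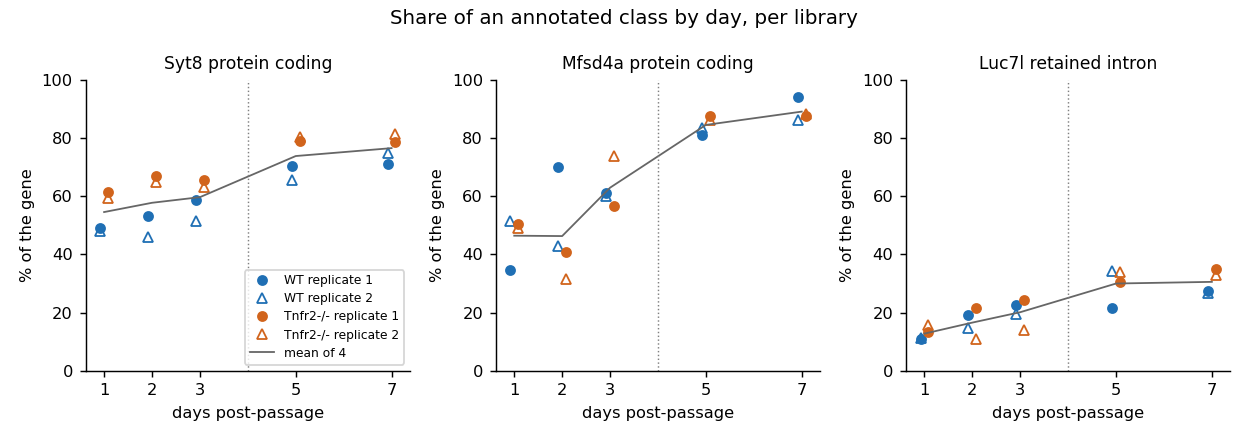
Share of the protein coding class of Syt8 and Mfsd4a and of the retained-intron class of Luc7l in their gene (vertical axes, percent) by day post-passage (horizontal axes, days), with a point for each library, coloured by genotype, and a line through the day means. The Mfsd4a coding share lay at a day mean of 46.4% at 1 DPP and 89.1% at 7 DPP.

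Across all genes, 1284 class shares (8.21%) had an unadjusted p under 0.05. The retained-intron share was higher late in 2104 and lower in 1872 of 3976 genes, with a median difference of 0.17 points and an unadjusted p under 0.05 in 181 higher and 133 lower. The share of transcripts marked for nonsense-mediated decay was higher in 975 and lower in 959 of 1934, with such a p in 107 higher and 60 lower. The coding share was higher in 3034 and lower in 3356 of 6390, with a median difference of -0.22 points and such a p in 233 higher and 322 lower. Over the whole library, intron-retaining transcripts held 6.22% to 7.27% of the signal early and 5.81% to 7.29% late. Here the mean was lower late (6.36%) than early (6.71%), unlike the tilt of the gene counts, and this was not tested. The mean transcript length per library, weighted by signal, was 1516 to 1648 bases early and 1534 to 1671 bases late, so that early and late libraries overlapped in both measures.

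Among 13 SR proteins and TRA2 factors, which bind exonic enhancers, 11 genes with 71 transcripts could be tested and 1 transcript (1.41%, beside 0.0711% of all transcripts) was called. This was Srsf3-204, a retained-intron transcript of Srsf3, which rose from 3.94% ± 0.917 to 7.13% ± 1.505 (limma adjusted p 0.0329), with libraries from 2.51% to 5.38% early (median 3.89%) and from 5.43% to 10.1% late (median 6.88%), without overlap. Of the 20 retained-intron transcripts of these genes, 16 were higher and 4 lower late, with an unadjusted p under 0.05 in 6 and 1 of them, beside 6.97% of all retained-intron transcripts tested. Of 26 coding transcripts 12 were higher and 14 lower, with an unadjusted p under 0.05 in 1 and 6, beside 9.49% of all coding transcripts. The 10 transcripts marked for nonsense-mediated decay were split, with 6 higher and 4 lower and an unadjusted p under 0.05 in 2 and 2, beside 8.51% of all such transcripts. Of 8 processed transcripts 7 were higher and 1 lower, with such a p in 1 and 0, beside 7.94% of all processed transcripts. The rest of the 71 had no class in the annotation. Over all 71 transcripts, 26.8% had an unadjusted p under 0.05, beside 8.73% of all transcripts tested, and the median absolute difference was 1.95 points, beside 3.02. Tra2a-203, a retained-intron transcript of the splicing activator Tra2a, stood at 2.83% early and 6.33% late. Srsf3-205, the most abundant transcript of Srsf3 and also intron-retaining, stood lower late, at 61.5% and 56.3%. Neither of these transcripts was called. These genes and members were chosen after earlier results of the same data had been seen.

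The hnRNPs and other splicing regulators, 63 of 66 genes with 524 transcripts, held 2 calls (0.382%, beside 0.0711% of all transcripts), and 12.02% had an unadjusted p under 0.05, beside 8.73% of all. Luc7l, a U1 snRNP-associated factor, raised the share of the intron-retaining Luc7l-204 from 12.2% ± 4.08 to 25.0% ± 3.60 (12.7 points, SE 1.87, limma adjusted p 0.0156). Its libraries ran from 6.34% to 17.3% (median 13.0%) early and from 18.1% to 27.8% (median 27.0%) late and did not overlap. Ddx17, a helicase and splicing cofactor, raised the share of the short Ddx17-204 (418 codons) from 16.5% ± 2.11 to 22.3% ± 1.64 (adjusted p 0.0156), and the related Ddx17-202 (407 codons) stood at 14.8% early and 19.0% late (not called). Both short forms leave the coding sequence of Ddx17-203 (650 codons) at the same exon end and read into different sequence, at chr15:79533167-79533210 for Ddx17-204 and chr15:79535946-79535956 for Ddx17-202 (minus strand, GRCm38), with shared bases in lower case and own bases in capitals.
Ddx17-204: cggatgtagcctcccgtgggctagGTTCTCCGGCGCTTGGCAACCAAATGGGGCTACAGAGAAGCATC
Ddx17-202: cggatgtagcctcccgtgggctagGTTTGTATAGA
Sf3b1, a core subunit of the U2 snRNP that lies outside these lists and was chosen after its values were seen, raised the share of its retained-intron transcript Sf3b1-203 from 8.19% ± 2.55 to 15.0% ± 2.04 (limma adjusted p 0.0219).

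Of the other listed groups, 2 held calls. Genes known to be spliced differently in epithelial and mesenchymal cells (56 of 60 tested, 364 transcripts) held 1 call up and 2 down, those of Macf1, Itga6 and Mark2 (0.824%, beside 0.0711% of all transcripts). Translation genes (42 of 46, 301 transcripts) held 2 up and 1 down, those of Eif4a2 and Npm1 (0.997%), with a median absolute difference of 0.49 points. In these 2 lists, 11.8% and 11.96% had an unadjusted p under 0.05. Limma called none of the 254 transcripts of actin cytoskeleton genes, 209 of glycolysis and central metabolism, 193 of Wnt signalling and intestinal transcription factors, 167 of apoptosis and the p53 pathway or 173 of colonic differentiation. Between 11.9% and 14.2% of the transcripts of these 5 groups had an unadjusted p under 0.05, beside 8.73% of all transcripts. Among fibroblast markers, 15 of 22 genes with 51 transcripts were tested and none was called, with 25.5% at an unadjusted p under 0.05 beside the same 8.73%. Of 5 testable epithelial defining markers with 21 transcripts none was called either, with 9.52% at an unadjusted p under 0.05.

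Limma called no transcript of a set of genes with well-known isoforms, among which Tnfrsf1b had too few transcripts to be tested. Cd44, the hyaluronan receptor whose variant exons mark stem and progenitor cells, had its variant-exon form Cd44-201 (780 codons) at 23.1% ± 4.48 early and 17.3% ± 3.58 late (limma adjusted p 0.247), and the shorter Cd44-202 (580 codons) was at 15.8% and 19.2%. Pkm, pyruvate kinase, had its main coding transcript Pkm-201 (531 codons) at 72.1% ± 3.997 and 65.6% ± 5.21 (limma adjusted p 0.323), beside the short Pkm-211 at 3.89% and 9.13%. Rps24, a ribosomal protein with a small alternative exon, had Rps24-202 at 0.803% and 4.53% (limma adjusted p 0.224). Ctnnd1, p120 catenin of adherens junctions, had Ctnnd1-207 at 8.61% and 14.1%, and Esrp1, an epithelial splicing regulator, had Esrp1-202 at 13.5% and 18.1%. The direction of Esrp1-202 turned without Tnfr2-/- replicate 2, to -1.29 points. Tcf7l2, the Wnt transcription factor, had Tcf7l2-222 at 16.5% and 28.3%, with early libraries spread from 0% to 50.5%. In Fgfr2, a fibroblast growth factor receptor, the retained-intron Fgfr2-224 was at 17.7% early and 7.46% late, and in Myl6, a myosin light chain, Myl6-201 was at 57.8% and 63.0%. Tpm1, a tropomyosin, had Tpm1-211 at 23.5% and 19.9% and Tpm1-212 at 12.3% and 9.28%. For Hnf4a, the nuclear receptor of enterocyte identity, Hnf4a-201 averaged 63.3% and 66.4% and Hnf4a-202 19.0% and 16.3%. In Tnfr2-/- replicate 2 at 3 DPP these were 7.99% and 65.4%, while their sum stayed between 69.4% and 100% in all libraries. Without that library the direction of both turned, to -2.10 points for Hnf4a-201 and 1.69 points for Hnf4a-202.

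The remaining called genes were chosen after their values were seen. Aldh1a3, a retinaldehyde dehydrogenase, shifted toward its full-length form Aldh1a3-201 (512 codons) against the truncated Aldh1a3-203 (176 codons), from 71.2% ± 5.55 to 82.9% ± 2.76 of the coding signal (limma adjusted p 0.0188), with libraries from 61.2% to 78.5% early and from 78.0% to 87.3% late. Its level, 288 early and 480 late, varied widely between libraries and was not called. Nxf1, the mRNA export receptor, shifted from Nxf1-201 (618 codons), which fell from 76.1% to 57.1%, to the short Nxf1-204 (282 codons), which rose from 6.17% to 20.2%. Nop56, a core protein of box C/D snoRNPs, had a lower late share of its full-length Nop56-202, from 93.0% ± 3.98 to 79.5% ± 7.46 (limma adjusted p 0.0190), while the gene fell from 306 to 174. Polr1d, a gene for subunits of RNA polymerases I and III, moved from Polr1d-201 (44.0% to 36.2%) to Polr1d-202 (55.9% to 63.8%), which have 133 and 126 codons and end in different exons.

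Some called coding sequences differ by a few bases. Pdcd6ip (ALIX), an ESCRT-associated adaptor, fell in Pdcd6ip-202 from 88.0% ± 1.23 to 81.2% ± 3.91 of its coding signal (limma adjusted p 0.0196), and its coding sequence differs from that of the rising Pdcd6ip-201 by an insert of 15 bases, shown in capitals between shared flanks (chr9:113685424-113685438, minus strand, GRCm38). Outside the coding sequence the annotated transcripts also differ in length, with 3223 bases in all for Pdcd6ip-202 and 5951 for Pdcd6ip-201.
Pdcd6ip-202: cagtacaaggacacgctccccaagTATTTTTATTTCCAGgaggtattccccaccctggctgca
Cp, which encodes the ferroxidase ceruloplasmin, raised the share of Cp-203 from 26.6% ± 5.29 to 43.3% ± 7.75 (limma adjusted p 0.0165). Its coding sequence lacks 3 bases, shown in capitals, that Cp-202 carries at chr3:19974859-19974861 on the plus strand (GRCm38), where Cp-202 stood at 52.4% early and 44.3% late.
Cp-202: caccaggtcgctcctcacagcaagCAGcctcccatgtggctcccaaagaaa
The annotated transcripts, of 4029 bases for Cp-202 and 3183 for Cp-203, also differ outside the coding sequence, and reads there enter the estimate of each form. Cp-203 rose by 9.97 points in WT and by 23.3 points in Tnfr2-/-, with an unadjusted p of 0.0140 for the difference in the limma fit (adjusted p 0.903).

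Ppid, a cyclophilin, had a higher late share of the intron-retaining Ppid-204, from 7.31% to 12.6% (limma adjusted p 0.0160). The level of Ppid-204 itself was 9.64 early and 10.03 late, while that of the gene fell from 135 to 79.4. Nacc2, a BTB-domain repressor, raised the share of the non-coding Nacc2-205 from 0.710% to 27.9% (adjusted p 0.0293), at a gene mean of 11.2 and with Tnfr2-/- replicate 1 at 7 DPP at 0. The less stable coding calls included Farsb, a phenylalanyl-tRNA synthetase subunit, in which Farsb-201 fell from 79.5% to 46.7% and was listed at 0 in WT replicate 1 at 5 DPP; Cpsf6, of the cleavage factor that selects polyadenylation sites, in which Cpsf6-201 rose from 18.5% to 30.6%; and Col12a1, a collagen of fibroblasts, in which Col12a1-201 rose from 79.6% to 93.2%. In the 20 fits without 1 library, Cpsf6-201 was called in 3, Col12a1-201 in 4 and Farsb-201 in 6. The coding forms Sept8-204 and Sbf1-210 were called in 12 and 10 of them. Sbf1, a pseudophosphatase, had an incomplete form Sbf1-210 that fell from 44.4% to 25.8% (adjusted p 0.0265).

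**Figure D5:**
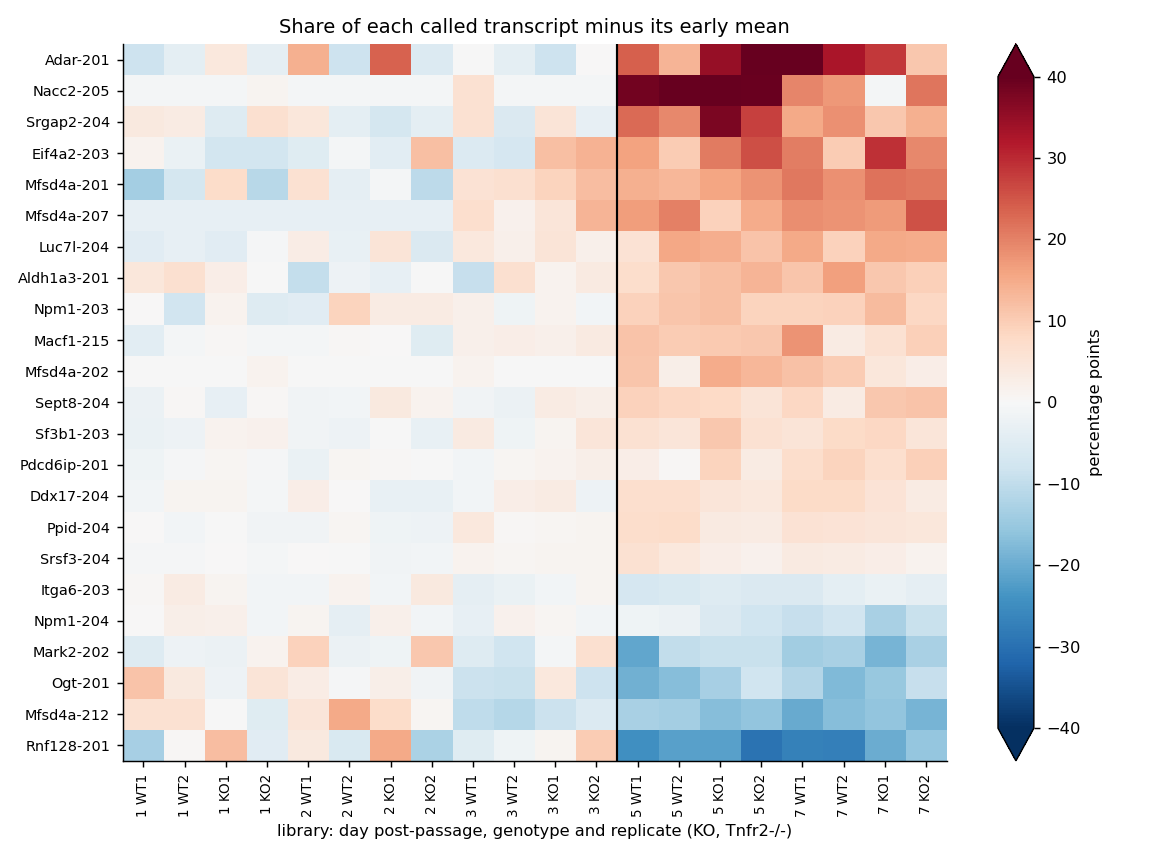
Share of 23 of the 24 called transcripts (rows) in each of the 20 libraries (columns, ordered by day, then genotype and replicate, with a line between 3 and 5 DPP) minus its mean over the 12 early libraries, in percentage points from -40 (blue) to 40 (red). Late libraries of all 4 replicates carry the colour of the called direction, with exceptions such as Nacc2-205 in Tnfr2-/- replicate 1 at 7 DPP.

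Usage and level were tested separately. Of 13539 genes, 4063 (30.0%) were called between late and early in their total level, 2241 higher and 1822 lower, by limma on log2(value + 1), a scale that understates changes of low genes. Of the 30 genes called for a transcript, a coding sequence or a class, 11 were called higher, 8 lower and 11 not called. Calls in level were thus more frequent among these genes than the 30.0% of all genes, and the relation was not tested. Some of the calls lay in genes with small changes in level, such as Eif4a2 (log2 difference 0.25, adjusted p 0.0145) and Luc7l (-0.28, adjusted p 0.0496). Others lay in genes with larger changes, such as Mfsd4a (2.53), Nop56 (-0.84) and Ppid (-0.76). For Mark2, from 44.8 to 67.1, and Ogt, from 56.5 to 89.7, the gene rose while its main coding transcript lost share, and Mark2-202 itself averaged 22.7 early and 25.1 late.

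WT and Tnfr2-/- cultures were then compared for their late minus early differences. For the 24 called transcripts both genotypes moved in the same direction, and none had an unadjusted interaction p under 0.05 in the limma fit (smallest 0.0958). Their selection on a difference over both genotypes in the same libraries favours this outcome, so it does not show that the genotypes are alike. Over all transcripts limma called 0 interactions (0%), with 1695 at an unadjusted p under 0.05 and a smallest adjusted p of 0.309. Within a genotype 1 transcript each was called (0.00296% in WT and 0.00296% in Tnfr2-/-), with 2679 and 1972 at an unadjusted p under 0.05. In WT this was Rpl13a-214, of a large-subunit ribosomal protein gene. In Tnfr2-/- it was Zfp280c-204, of a zinc finger gene with a mean level of 9.21, which rose from 6.50% to 73.6% (adjusted p 0.0252) and stood at 1.92% and 12.2% in WT. The difference between genotypes in Zfp280c-204 was not called (adjusted p 0.735).

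Of the coding sequences, 1 had a called difference between genotypes (0.00663%), again Rpl13a-214. In WT its share of the coding signal was at most 0.647% in the early libraries, and 16.4% and 19.3% at 5 DPP and 16.0% and 25.3% at 7 DPP in replicates 1 and 2. In Tnfr2-/- late libraries it was 8.98% in replicate 2 at 5 DPP and at or near 0 in the others. The late minus early difference was lower by 16.9 points in Tnfr2-/- than in WT (SE 2.36, limma adjusted p 0.0154). Rpl13a has many near-identical pseudogene copies, so the assignment of its reads is uncertain. The call was absent without Tnfr2-/- replicate 1, without Tnfr2-/- replicate 1 at 7 DPP or without Tnfr2-/- replicate 2 at 7 DPP, as counted over all coding sequences (0 each). Leaving out Tnfr2-/- replicate 2 gave 2 calls, leaving out the 5 DPP library of Tnfr2-/- replicate 1 gave 3, and leaving out its 2 DPP library or the 5 DPP library of WT replicate 2 gave 4. Of the 29 coding sequences called late against early, 1, Cp-203, had an unadjusted interaction p under 0.05. In the full fit, 753 coding sequences had an unadjusted interaction p under 0.05.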

How the data were processed

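The authors had stranded libraries made from total RNA of the 20 cultures and sequenced as single-end reads of 75 bases. The study's text does not say whether mRNA was selected, which bears on retained-intron and non-coding shares. Their processing notes name CASAVA, kallisto and sleuth and the mouse build mm10, and the study lists 1 version for kallisto and sleuth together. The transcript annotation release is not given in the sources used here. The deposited signal is TPM per transcript divided by a size factor per library, as inferred from library sums of 900655 to 1111080. Kallisto divides reads among overlapping transcripts by a likelihood estimate, so forms of a gene are not measured independently. The study gives 1 approximate number of reads for all samples, the table holds no depth per library, and no counting error is given. The authors' test statistics, p-values and q-values in the table were not used.

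Of 113974 lines, 781 repeats were dropped, and 199 transcripts without a gene (at most 0.0989% of a library) were left out. Transcripts were named, classed and placed by GENCODE M21 on GRCm38 (the same assembly as mm10), which held 33382 of the 33733 (99%). The 351 others were tested without a class. Of the members, 735 in 162 genes, these 351 included, had the same values in all libraries as another transcript of their symbol, which splits their share, and 0 of these genes were called. Grouping by Ensembl identifier without the 351 called the same 24 transcripts. The kept transcripts held on average 94.9% of their gene.

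Shares were analysed in R 4.3.3 by limma 3.58.1, with terms for late against early and for genotype and a mean-variance trend on the level of the gene. Comparisons within and between genotypes came from a fit with a mean for each genotype and phase. A library in which a gene summed to 0 was left out for that gene (53 genes). P-values were two-sided and adjusted over all items of a level. The design had assumed other units, and the rule for normalised values was followed. The procedure was tested on simulated data. Groups and replicate numbers came from the labels, which do not tie a number to 1 animal across days, and a fit with the number as a block is given as an alternative.

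Named genes were called genes with a change of leading transcript (none), called genes of the splicing, epithelial-mesenchymal and translation lists (Srsf3, Luc7l, Ddx17, Macf1, Mark2, Itga6, Eif4a2 and Npm1), a fixed set of genes with known isoforms, and genes with a called interaction (none at transcript level). The members and lists were chosen with earlier results of these data known, and the coding-sequence, class and gene-level comparisons were added after the data had been seen. Alternatives were other scales, filters and day groupings, the block, and leaving out each library or replicate. Some called genes are not reported here by name.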

Additional observations from a re-analysis of the deposited data

Results flagged for a closer look

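Within each genotype, the 6 early and the 4 late libraries of 78 named shares were searched for a library far from the others (Dixon's ratio above 0.625 for 6 and 0.829 for 4). Of 311 groups 29 (9.32%) held one, where chance gives about 1 in 20 for values of a normal spread. In 6 of the 29 the other libraries were all at 0, where any value above 0 stands apart and that rate does not apply. Transcripts of a gene and coding sequences of the same transcript are not independent. The 29 fell on WT libraries 22 times and on Tnfr2-/- libraries 7 times, and WT replicate 1 at 3 DPP alone appeared 7 times.

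In that library the shares were high for Nacc2-205 (6.76%), Mfsd4a-202 (1.64%, and 2.68% of the coding signal), Sf3b1-203 (11.7%), Ppid-204 (11.6%), Fgfr2-224 (51.3%) and Tpm1-212 (38.1%). For the Nacc2, Mfsd4a, Sf3b1 and Ppid transcripts these values lay toward those of the late libraries. Other early WT libraries that stood apart were WT replicate 1 at 2 DPP for Adar-201 (22.7%) and Mark2-202 (60.7%), WT replicate 2 at 1 DPP for Myl6-201 (27.3%) and Tcf7l2-222 (3.32%), and WT replicate 2 at 3 DPP for Rps24-202 (1.15%).

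Among late WT libraries, replicate 2 stood apart at 5 DPP for Npm1-203 (26.5%) and Mfsd4a-202 (2.69%, and 3.23% of the coding signal), and at 7 DPP for Sept8-204 (6.51%, the same in the coding signal), Tpm1-211 (29.1%) and Col12a1-201 (91.6% of the coding signal). Replicate 1 stood apart at 5 DPP for Hnf4a-202 (38.4%) and Tpm1-212 (32.4%) and at 7 DPP for Nop56-202 (70.3% of the coding signal).

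In Tnfr2-/- cultures, replicate 2 at 1 DPP was high for Nacc2-205 (1.76%) and Mfsd4a-202 (1.62%, and 3.30% of the coding signal), and at 3 DPP it had Hnf4a-201 at 7.99% and Hnf4a-202 at 65.4%. Replicate 1 had Cd44-201 at 26.0% at 1 DPP and Macf1-215 at 15.9% of the coding signal at 7 DPP.

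The coding form Rpl13a-214 differed between the genotypes in its late minus early difference, by -16.9 points in Tnfr2-/- relative to WT, in the fit across all coding sequences.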

How the results depend on the processing

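Of the called shares, 517 of the transcript comparisons with an alternative kept their direction and side of the threshold and 343 kept their direction only, against 677 and 333 for coding sequences and 153 and 22 for classes. Transcripts called with the main settings (24) numbered 6 on an arcsine scale, 1 by the difference per replicate, 70 without a filter and 0 for 7 against 1 DPP. On the log2 odds scale 29 were called, but most of the 24 were not among them. Those that stayed called there were Mfsd4a-207, Rnf128-201, Sept8-204, Mfsd4a-202, Nacc2-205, Adar-201 and Mfsd4a-212. The paired fit with the replicate number as a fixed block called 16 transcripts, 27 coding sequences and 7 classes, and as a random block 24, 28 and 5. The fixed block lost Nacc2-205, Npm1-204, Pdcd6ip-201, Mfsd4a-212, Mfsd4a-201, Itga6-203, Srsf3-204 and Ogt-201 (adjusted p 0.0534 to 0.0735) and the coding forms Sept8-204, Farsb-201, Farsb-203, Col12a1-201 and Cpsf6-201 (0.0554 to 0.0709). Leaving out a library or a replicate gave 0 to 34 transcripts, 1 to 41 coding sequences and 1 to 13 classes. Deviations of same-numbered libraries from their group mean correlated over 10 pairs of days at a median r of 0.0069 in WT and -0.0023 in Tnfr2-/-, which does not tell whether a number stands for 1 animal. Mfsd4a-207 and Rnf128-201 were called in 31 of 36 alternatives.

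Coding sequences (29) numbered 6 on log2 odds, 16 on arcsine, 14 without a trend, 0 per replicate, 52 without a filter and 0 for 7 against 1 DPP. Of the 29, only Adar-201 stayed called on log2 odds (limma adjusted p 0.0366). Classes (5) numbered 12, 8, 0 per replicate, 16 with a transcript mean of at least 5, 14 with a gene mean of at least 20, 21 without a filter and 0 for 7 against 1 DPP. Called changes of the leading transcript (0) were 1 on log2 odds and 6 without a filter, with 0 to 1 on leaving out samples. Those of the leading coding sequence (2) were 0 on log2 odds, 0 per replicate and 8 without a filter, with 0 to 3. Within WT (1), 6 transcripts were called on log2 odds, 0 without a trend and 125 without a filter, with 0 to 23. Within Tnfr2-/- (1) it was 2 on log2 odds, 116 without a filter and 0 on arcsine, per replicate and under both stricter filters, with 0 to 8. Interactions (0) were 2 on log2 odds, 1 on arcsine and 112 without a filter, with 0 to 3, and for coding sequences (1) they were 2, 0 and 31, and 0 without a trend or per replicate, with 0 to 4. The cause of these differences was not tested, apart from the larger number of low transcripts without a filter.

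Directions turned, all in uncalled shares, for Tpm1-211 at 7 against 1 DPP (0.00176), for Esrp1-202 (-1.29), Hnf4a-201 (-0.826) and Hnf4a-202 (2.72) without Tnfr2-/- replicate 2, and for Hnf4a-201 (-2.10) and Hnf4a-202 (1.69) without its library of 3 DPP. Over all samples left out, these 3 ranged from -1.29 to 7.39, from -2.10 to 7.94 and from -7.17 to 2.72 points. Depth limits low genes such as Adar and Nacc2, in which a share can rest on few reads.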
